A study of Homo sapiens with 9 samples.

Results

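The 8 genes described here are ASS1, ASL, ARG2, OAT, SLC7A1, ODC1, AZIN1 and PRODH. They act in arginine, ornithine, proline or polyamine metabolism and were taken by name from a table of 78986 genes. The choice was made with results of these libraries known, since ASS1 was selected on its higher CPM in both p53 mutants than in WT replicates 1 and 2, and the other 7 were added as its neighbours in metabolism. The fold changes of ASS1 against WT are therefore given as a description, without a test. RNA-seq was performed on HEK293T cells, a human embryonic kidney line, transduced with lentivirus for WT p53, p53 with the G245S substitution or p53 with the R273H substitution, and held under 1.5 µg/mL puromycin. Each of the 3 groups had 3 libraries, described as biological replicates, and no library of cells without transduced p53 was analysed here. The labels name the line HEK293 in some fields and HEK293T in others. The parental line carries viral proteins that bind the cells' own p53. In bulk RNA a change in the number of cells that express a gene and a change in RNA per cell cannot be told apart.

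MDM2, a p53 target, was at 65.6 to 84.3 CPM in the WT libraries and 41.8 to 47.1 CPM in the mutants, and WT replicate 3, at 65.6 CPM, was on the WT side. The count table does not separate p53 alleles, so the substitutions themselves were not checked.

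Arginine is made from citrulline in a pair of steps. Argininosuccinate synthase, the product of ASS1, joins citrulline to aspartate, and argininosuccinate lyase, the product of ASL, splits the product into arginine and fumarate. ASS1 is the limiting step in most cells outside the liver, and many tumours lose it and depend on arginine from outside, which enters through cationic amino acid transporters such as SLC7A1. Arginase cuts arginine into urea and ornithine, and ornithine feeds either proline synthesis through OAT or polyamine synthesis through ODC1. p53 is known to act on several points of this network, with PRODH and SAT1 among the genes it induces.

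ASS1 (ENSG00000130707) lies on the plus strand of GRCh38 at chr9:130444961-130501274, and its promoter is shown because it is the member that was selected on its level. RefSeq (GRCh38.p14) gave 300-base windows, from 250 bases before to 50 bases after a transcription start, for 6 of the 8 members. Capitals mark a GC box (GGGCGG on either strand, bound by SP1-type factors), an E-box (CACGTG, bound by MYC-type and related factors) or a p53 half-site. The first line is the window at the annotated start of ASS1, chr9:130444711-130445010, and the second an upstream window, chr9:130444457-130444756. The last line is 1 of 2 windows of ODC1, chr2:10447963-10448262 on the minus strand, which lies downstream of the annotated start and is shown for its E-boxes, since ODC1 is a known target of MYC.

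ASS1, annotated start: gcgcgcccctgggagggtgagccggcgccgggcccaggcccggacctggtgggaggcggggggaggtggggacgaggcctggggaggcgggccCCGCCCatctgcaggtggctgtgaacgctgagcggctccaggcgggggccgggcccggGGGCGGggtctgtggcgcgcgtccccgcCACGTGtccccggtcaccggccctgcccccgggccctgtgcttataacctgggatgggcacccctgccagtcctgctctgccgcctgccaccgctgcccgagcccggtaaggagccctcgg

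ASS1, upstream start: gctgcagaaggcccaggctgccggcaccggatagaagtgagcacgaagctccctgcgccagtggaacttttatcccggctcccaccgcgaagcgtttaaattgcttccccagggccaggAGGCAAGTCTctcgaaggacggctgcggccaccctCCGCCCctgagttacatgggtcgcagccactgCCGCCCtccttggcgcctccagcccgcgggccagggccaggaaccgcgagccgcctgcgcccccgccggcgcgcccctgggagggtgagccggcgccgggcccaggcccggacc

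ODC1: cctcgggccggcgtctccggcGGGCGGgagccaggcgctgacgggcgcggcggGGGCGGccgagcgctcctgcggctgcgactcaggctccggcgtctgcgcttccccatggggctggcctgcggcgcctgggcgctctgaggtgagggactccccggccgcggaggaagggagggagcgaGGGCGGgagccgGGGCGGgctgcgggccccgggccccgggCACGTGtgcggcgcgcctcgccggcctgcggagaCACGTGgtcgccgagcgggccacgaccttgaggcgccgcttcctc

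The window at the annotated ASS1 start held 2 GC boxes and 1 E-box, and 78.3% of its bases were G or C. The upstream window held 2 GC boxes and 1 p53 half-site with 71.7% G or C. The ODC1 window shown held 4 GC boxes and 2 E-boxes, while the window at the annotated ODC1 start, not shown, held 6 GC boxes and 0 E-boxes. Over all 35116 windows in the RefSeq table, 45% held a GC box, 7.26% an E-box and 6.63% a p53 half-site, and the median G and C content was 58.7%. These matches describe letters in a window, and no measurement of binding was analysed here.

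ASS1 stood higher in all 6 mutant libraries than in both WT libraries that were fitted, and the WT library that was not fitted stood among the mutants. In CPM, which are counts scaled by TMM to a common library size, ASS1 was at 43.2 and 42.2 CPM in WT replicates 1 and 2. It was at 59.5, 70.6 and 64.7 CPM in the 3 G245S libraries and at 64.1, 72.6 and 60.4 CPM in the 3 R273H libraries. These levels rest on 330 to 586 counts per library. The mean of WT was 42.7 ± 0.677 CPM (SD, n = 2). The means of the mutants were 65.0 ± 5.56 CPM for G245S and 65.7 ± 6.24 CPM for R273H (SD, n = 3 each). Set against WT, ASS1 had a log2 fold change of 0.61 (standard error 0.0974) in G245S, a 1.53-fold higher level, and of 0.62 (standard error 0.0989) in R273H, a 1.54-fold higher level. Both comparisons use the same WT libraries.

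WT replicate 3 held 1486315 counts in total, against 7325514 to 9667306 in the other 8 libraries, and was left out of the fits for its depth. In that library ASS1 had 90 counts, or 62.8 CPM (exact 95% Poisson interval 50.5 to 77.2, counting error only). This level lay inside the range of the 6 mutant libraries, 59.5 to 72.6 CPM. It was 1.47 times the level of WT replicates 1 and 2 together (exact 95% interval 1.17 to 1.83, counting error only). WT replicates 1 and 2 are the libraries whose low values selected ASS1, so this ratio is given as a description, without a test. Among the 8752 genes with at least 20 counts in WT replicate 3, 7.64% had a ratio at least that high. With all 3 WT libraries the WT mean was 49.4 ± 11.6 CPM (SD, n = 3) and the groups overlapped. Fitted with all 3, ASS1 had a log2 fold change of 0.49 (standard error 0.129) in G245S and 0.51 (standard error 0.129) in R273H.

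**Figure D1:**
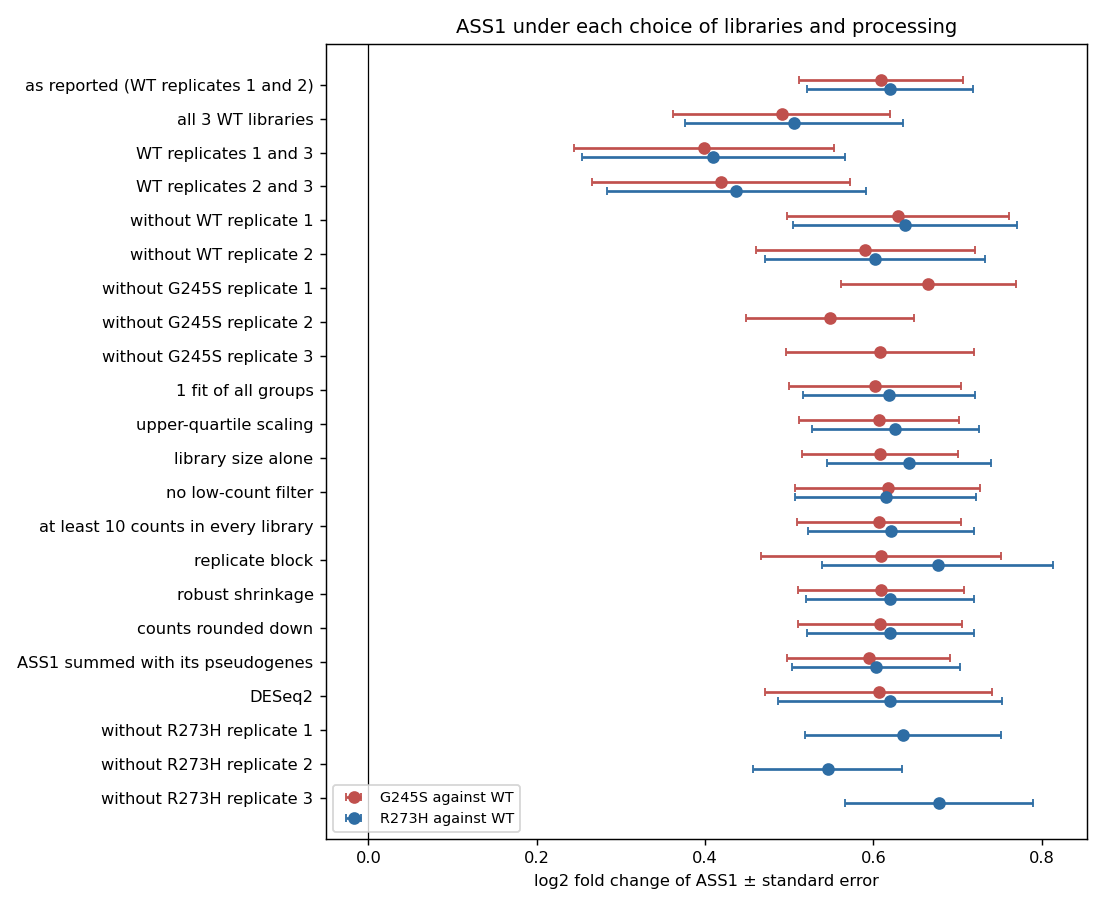
The log2 fold change of ASS1 (x axis) is plotted for each choice of libraries and processing (y axis), with points for the estimate and bars for its standard error, G245S in red and R273H in blue. The values with WT replicate 3 lie between 0.40 and 0.51, and those without it between 0.55 and 0.68.

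WT replicate 3 also had counts on genes that were low or at 0 in the other 8 libraries. The study's methods leave out 1 WT replicate for its poor quality and few reads, without naming it. Of 19 markers of cell types, 12 had at least 3 counts in WT replicate 3, and 10 of these were above all 8 other libraries. The share of all genes with at least 3 counts there that lay above was not computed. In this shallow library 3 counts already equal 2.09 CPM, so the 10 of 12 cannot be read as an excess. Of the 5 markers with at least 20 counts, 4 were above, where 26.8% of all genes with that many counts were. The 4 epithelial markers KRT8, KRT18, CDH1 and EPCAM summed to 231.7 CPM in WT replicate 3, against 72.7 to 79.3 CPM in the fitted WT libraries, 72.9 to 76.6 in G245S and 82.3 to 82.9 in R273H. The 3 leukocyte markers summed to 7.68 CPM, against 0.512 to 0.573 in WT, 0.203 to 0.642 in G245S and 0.459 to 1.09 in R273H, with LYZ at 6.98 CPM and the T cell marker CD3E at 0. The 3 hepatocyte markers summed to 6.28 CPM against 0.229 to 0.768 in the other 8 libraries, with TTR at 0, and the 3 endothelial markers to 3.49 CPM against 0.229 to 1.50, with CDH5 at 0. The 3 fibroblast markers, at 85.9 CPM, lay within the 21.7 to 87.3 CPM of the others. The 3 embryonic kidney markers, which check the labelled tissue, summed to 15.4 CPM in WT replicate 3 and to 7.67 to 13.9 CPM elsewhere, and PAX8 among them was at 0 in WT replicate 3 and under the floor of 3 counts elsewhere. Genes picked after their values were seen include KLK3, a prostate product, at 17.4 CPM, and SERPIND1, a liver product, at 34.9 CPM, both with 0 counts in every other library. Whether these reads came from the cells of this library or from other samples was not tested, nor was their part in its ASS1 level, so the 62.8 CPM may not be the level of cells expressing WT p53.

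ASS1 did not separate the mutants from each other. The direct comparison of the mutants was not used to choose ASS1, so it was tested. The choice did use the levels of both mutants against WT, so the test is not independent of it. Between R273H and G245S its log2 fold change was 0.01 (95% interval -0.18 to 0.20), and the quasi-likelihood test of edgeR gave an adjusted p of 1.0 (Benjamini-Hochberg, over all genes). In this comparison 0 of the 15614 tested genes passed, 0% of the table. An unadjusted p under 0.05 was reached by 741 genes, and DESeq2 called 1 gene. The interval leaves differences of up to about 0.20 on the log2 scale.

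ASS1 has many processed pseudogenes, whose reads can be shared with it. The table held 14 of them. Together they made up 0.196% to 2.65% of the counts of ASS1 and pseudogenes in a library. ASS1P2 had the most, 11 counts over all 9 libraries, followed by ASS1P14 with 6.5. Summing them with ASS1 gave log2 fold changes of 0.59 and 0.60.

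ASL (ENSG00000126522, chr7:66075800-66094697, plus strand), which completes arginine synthesis from argininosuccinate, had levels that overlapped between the groups. It was at 17.3 and 17.9 CPM in WT replicates 1 and 2, at 15.0, 17.7 and 15.2 CPM in G245S and at 16.6, 18.5 and 16.3 CPM in R273H. Of the G245S libraries 2 lay below both WT libraries and 1 between them. Against WT, edgeR gave a log2 fold change of -0.14 with a standard error of 0.127 in G245S (adjusted p 0.901) and of -0.04 with a standard error of 0.121 in R273H (adjusted p 0.997). In WT replicate 3 ASL had 40 counts, or 27.9 CPM, above all 8 other libraries. That was 1.59 times the level in WT replicates 1 and 2 (exact 95% interval 1.11 to 2.21, counting error only). Among the 8752 genes with at least 20 counts in WT replicate 3, 5.51% had a ratio at least that of ASL. ASS1 was also higher there, but WT replicates 1 and 2 are the libraries whose low values selected it. A joint shift of the 2 enzymes was not tested. Another gene annotated on the same strand overlaps ASL and held 3.5 to 30.5 counts per library, so the split of reads between them is uncertain.

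**Figure D2:**
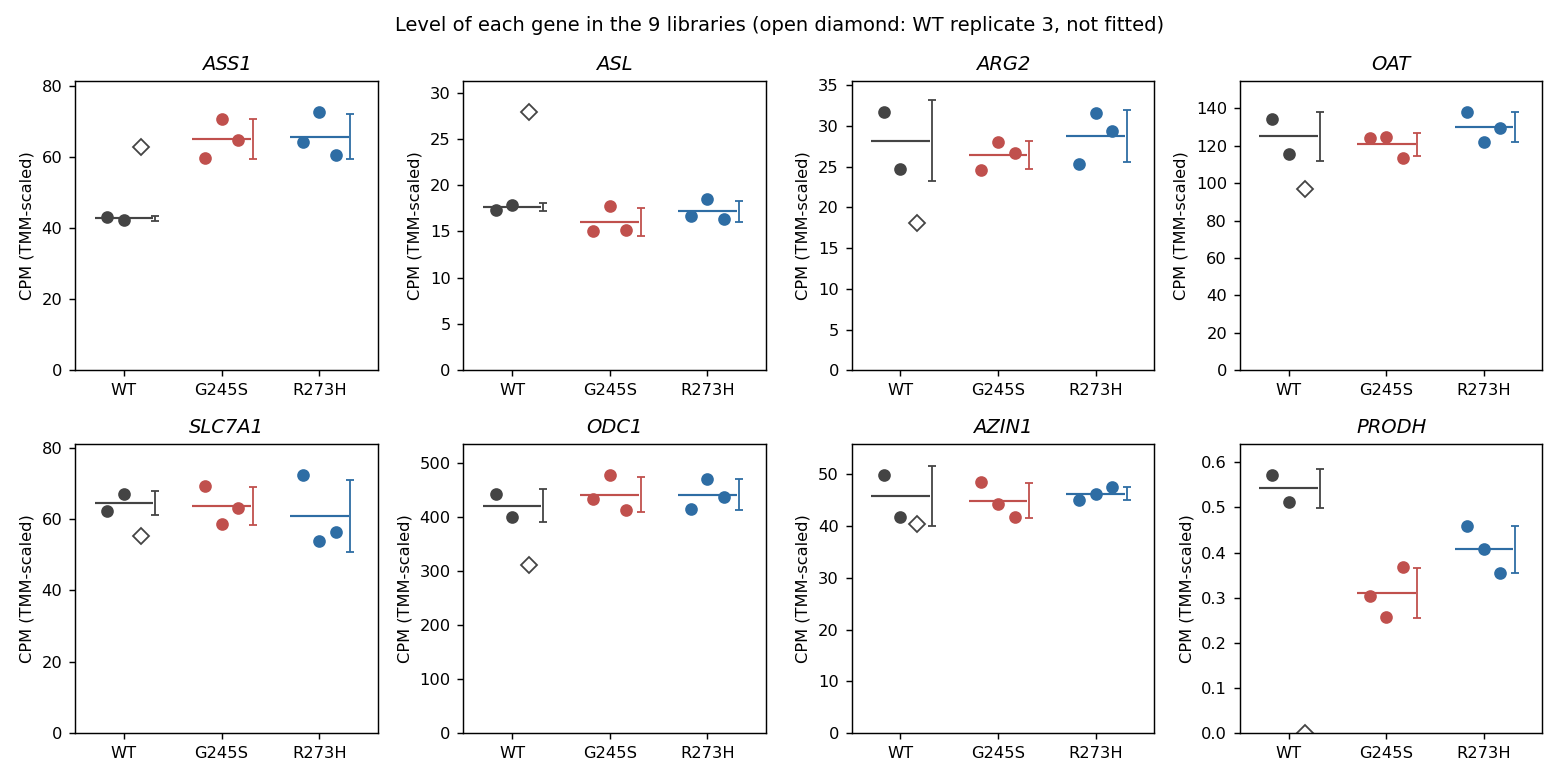
Each panel plots the level of 1 gene in CPM (y axis) in the 9 libraries by group (x axis), with filled points for the 8 fitted libraries, an open diamond for WT replicate 3, a line at the group mean of the fitted libraries and a bar for its SD. ASS1 has both fitted WT libraries below all mutants and the diamond among them, and in ASL the diamond lies above every point.

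The genes that spend arginine and ornithine showed overlapping levels in the 3 groups. ARG2 (ENSG00000081181, chr14:67619920-67651708, plus strand), the mitochondrial arginase, was at 31.7 and 24.7 CPM in the fitted WT libraries, at 24.6, 28.0 and 26.7 CPM in G245S and at 25.4, 31.6 and 29.4 CPM in R273H. Its fitted WT libraries spanned nearly the whole range of the mutants. By edgeR, ARG2 differed from WT by -0.09 on the log2 scale in G245S (adjusted p 0.929) and by 0.02 in R273H (adjusted p 0.997). OAT (ENSG00000065154, chr10:124397303-124418976, minus strand), ornithine aminotransferase, was at 134.5 and 115.8 CPM in WT, at 124.3, 124.7 and 113.7 CPM in G245S and at 138.1, 122.2 and 129.6 CPM in R273H. Its log2 fold changes were -0.04 and 0.06 (adjusted p 0.967 and 0.996 by edgeR). PRODH (ENSG00000100033, chr22:18912777-18936553, minus strand), proline dehydrogenase and a known p53 target, had 1.5 to 5 counts in the fitted libraries and 0 in WT replicate 3. These counts lay at or near the floor of 3 counts, which corresponds to 0.305 to 0.408 CPM in the fitted libraries and 2.09 CPM in WT replicate 3, and PRODH did not enter the test.

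SLC7A1 (ENSG00000139514, chr13:29509414-29595688, minus strand), the main carrier of arginine into most cells, was at 62.2 and 66.9 CPM in WT, at 69.3, 58.7 and 63.0 CPM in G245S and at 72.4, 53.9 and 56.4 CPM in R273H. Its R273H libraries spread wider than the distance between any pair of group means. On the log2 scale it differed from WT by -0.01 in G245S and by -0.08 in R273H, both with an adjusted p of 0.994 by edgeR.

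ODC1 (ENSG00000115758, chr2:10439968-10448327, minus strand), ornithine decarboxylase, which starts polyamine synthesis, had the highest level of the members. It was at 442.8 and 399.9 CPM in WT, at 433.6, 478.7 and 413.8 CPM in G245S and at 415.0, 471.5 and 437.9 CPM in R273H. The groups overlapped. Its log2 difference from WT was 0.08 in G245S (95% interval -0.14 to 0.29, adjusted p 0.932 by edgeR) and 0.07 in R273H (95% interval -0.14 to 0.28, adjusted p 0.994 by edgeR). AZIN1 (ENSG00000155096), an ODC1-like protein that shields ODC1 from its inhibitor, was at 49.9 and 41.7 CPM in WT, at 48.5, 44.3 and 41.8 CPM in G245S and at 45.0, 46.3 and 47.5 CPM in R273H. Its log2 fold changes were -0.02 and 0.01 (adjusted p 0.983 and 0.999 by edgeR).

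Of the 6 tested members other than ASS1, 0 passed an adjusted p of 0.05 in either direction against WT, in both mutants, and 0 reached an unadjusted p under 0.05. DESeq2 also called 0 of the 6 in each comparison. Over the whole table, 20 of 15893 genes (0.126%) passed in G245S and 22 of 16022 (0.137%) in R273H, a share at which a list of 6 genes holds fewer than 1 call. The table-wide counts include ASS1. An unadjusted p under 0.05 was reached by 6.66% of genes in G245S and 6.11% in R273H. Standard errors of the 6 genes ranged from about 0.0956 to 0.128 on the log2 scale, and the widest interval against WT, that of ARG2 in R273H, ran from -0.25 to 0.29. Between R273H and G245S the 6 genes had log2 fold changes from -0.07 to 0.12, and 0 passed.

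**Figure D3:**
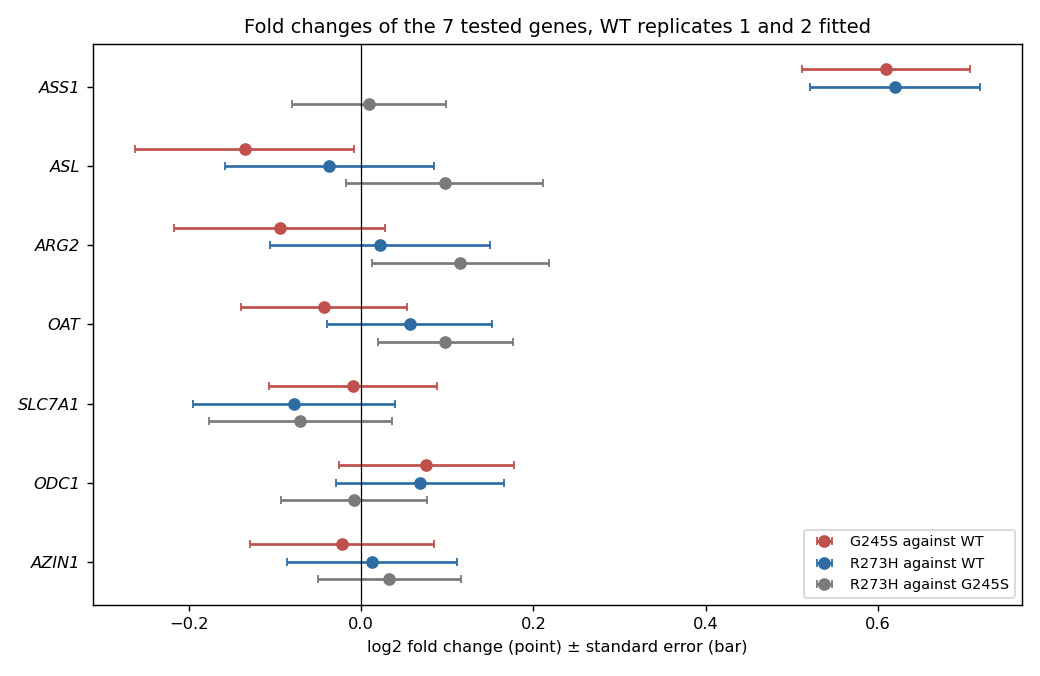
The log2 fold change (x axis) of the 7 tested genes (y axis) is plotted as points with bars for the standard error, G245S against WT in red, R273H against WT in blue and R273H against G245S in grey. ASS1 stands at 0.61 and 0.62 against WT and at 0.01 between the mutants, and the other 6 genes lie between -0.14 and 0.12.

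In WT replicate 3 the members did not shift together. Of the 7 members with at least 20 counts there, 1 (ASL) lay above the other 8 libraries, 4 (ARG2, OAT, ODC1 and AZIN1) lay below them and 2 (ASS1 and SLC7A1) lay within their range. Over the 8752 genes with that many counts, 26.8% lay above and 33.8% below. The level of ODC1 in WT replicate 3, 310.6 CPM, was 0.735 times that of WT replicates 1 and 2 (exact 95% interval 0.666 to 0.809). OAT was at 97.0 CPM there, a ratio of 0.772 (0.645 to 0.917), and ARG2 at 18.1 CPM, a ratio of 0.639 (0.413 to 0.948). SLC7A1 at 55.1 CPM and AZIN1 at 40.5 CPM had intervals that included equal levels. All of these intervals cover counting error only and leave out variation between libraries. With 1 library on this side, they do not show whether a gene differed beyond that variation.

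**Figure D4:**
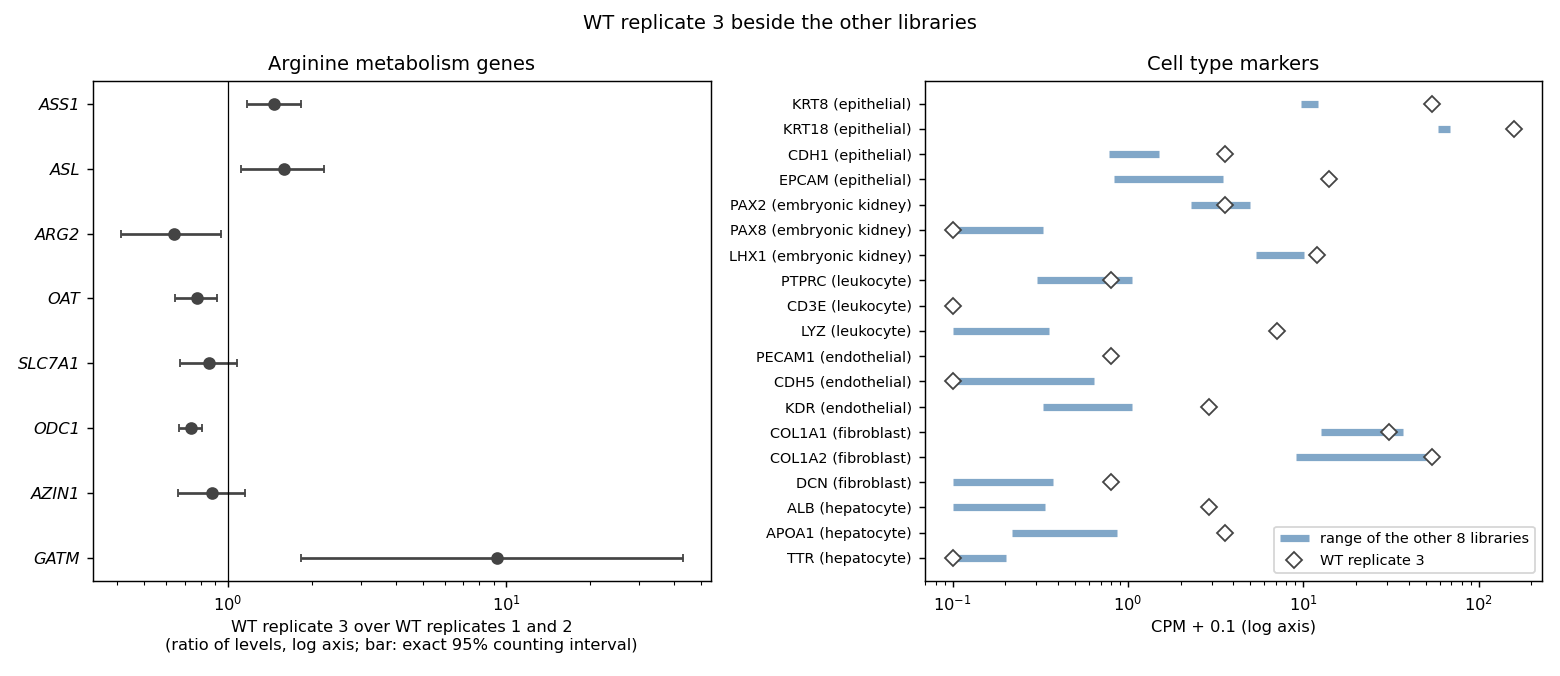
The left panel plots the ratio of the level in WT replicate 3 to that in WT replicates 1 and 2 (log x axis; bars are exact 95% counting intervals) for 7 members and GATM, and the right panel the level of 19 cell type markers as CPM + 0.1 (log x axis), with a diamond for WT replicate 3 and a bar for the range of the other 8 libraries. ASS1 and ASL lie above 1, ARG2, OAT and ODC1 below 1, and all 4 epithelial diamonds lie to the right of their bars.

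Per kilobase of annotated gene length, ODC1 was the highest member in WT replicates 1 and 2 at 127.4 ± 9.19 CPM per kb, followed by OAT at 36.9 ± 3.90, ASS1 at 14.2 ± 0.224, ARG2 at 12.4 ± 2.18, SLC7A1 at 8.40 ± 0.435, AZIN1 at 7.48 ± 0.949, ASL at 2.92 ± 0.0724 and PRODH at 0.0622 ± 0.00494 (SD, n = 2). Per kilobase, the bands of mean and SD of the neighbours ASS1 and ARG2, and of SLC7A1 and AZIN1, met in WT. This holds only after division by annotated length, and whether reads scale with that length was not tested. In CPM the fitted WT libraries did not overlap, at 43.2 and 42.2 for ASS1 against 31.7 and 24.7 for ARG2. For SLC7A1 they were at 62.2 and 66.9, against 49.9 and 41.7 for AZIN1. In G245S ASS1 was at 21.5 ± 1.84 and ARG2 at 11.6 ± 0.757 CPM per kb (SD, n = 3). In R273H they were at 21.8 ± 2.07 and 12.6 ± 1.38 (SD, n = 3). The bands of the 2 genes did not meet in either mutant. ASS1 was selected for being higher in the mutants than in WT replicates 1 and 2, so this wider gap restates that choice. The level of ASL, per kilobase, was the lowest of the tested members in each group.

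The wider network held 63 genes other than ASS1, in 8 lists by role and a list of genes linked to p53. In G245S 54 of them were tested and 0 passed in either direction, against 0.126% of all genes, and in R273H 53 were tested and 0 passed, against 0.137%. The median of their log2 fold changes stood at -0.0031 for G245S and 0.030 for R273H, beside 0.0034 and 0.0023 over all tested genes. An unadjusted p under 0.05 was reached by 3 genes with a higher and 1 with a lower level in G245S, and by 1 with a higher and 2 with a lower level in R273H. Between the mutants 53 were tested, 0 passed and 2 reached an unadjusted p under 0.05, against 4.75% of all genes.

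SAT1, spermidine/spermine N1-acetyltransferase, opens polyamine breakdown and is a known p53 target, and it had the highest fold change after ASS1 among the tested network genes in both mutants. SAT1 (ENSG00000130066) was at 46.6, 43.9 and 50.3 CPM in WT replicates 1 to 3, at 58.9, 65.4 and 65.0 CPM in G245S and at 53.7, 69.4 and 57.8 CPM in R273H. All 6 mutant libraries were above all 3 WT libraries. SAT1 was 0.48 higher in G245S on the log2 scale (standard error 0.0925, adjusted p 0.0780 by edgeR) and 0.41 higher in R273H (standard error 0.109, adjusted p 0.367 by edgeR), so neither passed. A 90-base gene annotated inside SAT1 on the same strand held at most 4.5 counts in a library.

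GAMT, which makes creatine from guanidinoacetate, a product of arginine, and is also known to respond to p53, was lower in all 6 mutant libraries than in all 3 WT libraries. GAMT (ENSG00000130005) was at 83.6, 82.7 and 81.0 CPM in WT replicates 1 to 3, at 57.0, 69.0 and 61.7 CPM in G245S and at 61.6, 69.6 and 59.8 CPM in R273H. GAMT had a log2 fold change of -0.41 in G245S (standard error 0.0954, adjusted p 0.228 by edgeR) and of -0.39 in R273H (standard error 0.0914, adjusted p 0.230 by edgeR). These did not pass either.

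Libraries of the 3 WT replicates and of the 6 mutants did not overlap for 5 network genes in all. SAT1 and SMOX, spermine oxidase, were higher in the mutants, which is 2 of 53 genes against 2.32% of 15638 genes tested. GAMT, CPS1 and ATF4 were lower, which is 3 of 53 against 2.39%. With only the 2 fitted WT libraries, ASNS, asparagine synthetase, joined the higher genes, 3 of 53 against 4.2%, and the same 3 genes were lower, against 4.8%. ASS1 is left out of these counts. SMOX was at 2.09 to 4.58 CPM in WT and 4.76 to 6.16 CPM in the mutants. CPS1, carbamoyl phosphate synthetase, which feeds the urea cycle and is known to be repressed by p53, was at 6.98 to 7.93 CPM in WT, 6.13 to 6.68 in G245S and 4.50 to 5.74 in R273H. Its log2 differences from WT were -0.21 and -0.53 (adjusted p 0.876 and 0.687 by edgeR). ATF4, a transcription factor of the amino acid response that activates ASNS, was at 336.4 to 346.5 CPM in WT and 285.0 to 318.2 CPM in the mutants. Its log2 differences from WT were -0.19 and -0.15 (adjusted p 0.754 and 0.915 by edgeR).

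**Figure D5:**
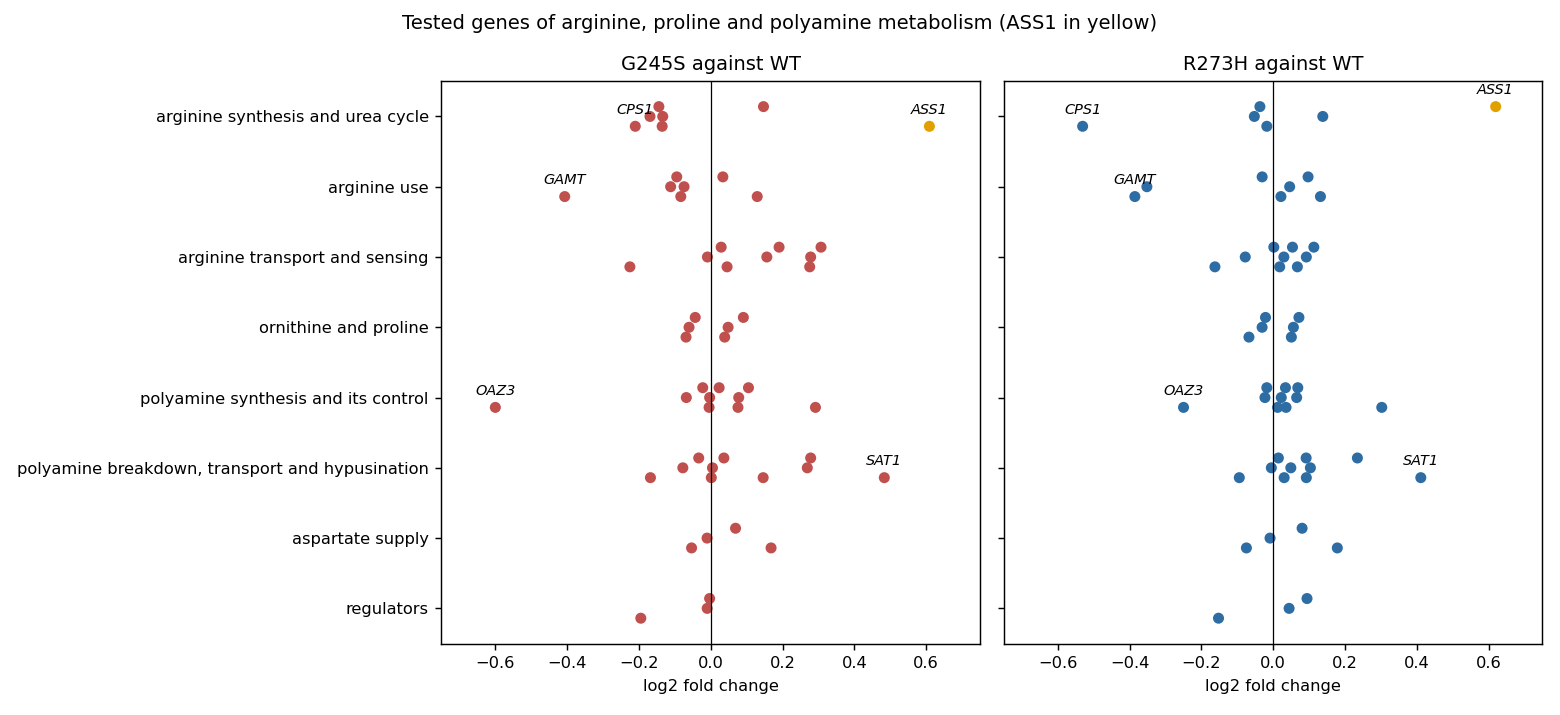
Each point is the log2 fold change (x axis) of 1 tested gene of arginine, proline and polyamine metabolism, by list (y axis), for G245S against WT on the left and R273H against WT on the right, with ASS1 in yellow. ASS1 stands at 0.61 and 0.62, SAT1 at 0.48 and 0.41 and GAMT at -0.41 and -0.39, with OAZ3, a testis antizyme at 1.61 to 3.55 CPM in the fitted libraries, at -0.60 and -0.25.

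By list, the urea cycle genes other than ASS1 gave 0 called of 6 tested in G245S and 0 of 5 in R273H, and SLC25A12, a carrier of aspartate out of mitochondria, was at a log2 fold change of 0.15 and 0.14. Of the 7 tested genes of arginine use 0 were called, with CKB, the brain-type creatine kinase, at 0.13 in both mutants. Of 9 tested genes of arginine transport and sensing 0 were called. SLC3A2, the heavy chain of several amino acid carriers, was at 0.28 in G245S (adjusted p 0.587 by edgeR) and 0.09 in R273H, and SLC38A9, the lysosomal arginine sensor of mTORC1, at 0.31 (adjusted p 0.725 by edgeR) and 0.05. Of 6 tested genes of ornithine and proline 0 were called, with log2 fold changes from -0.07 to 0.09, among them PYCR3 at 0.09 and 0.05 and ALDH4A1 at -0.07 and -0.07. All 10 polyamine synthesis genes were tested and 0 were called. MTAP, which recycles the methylthioadenosine that polyamine synthesis releases, was at 0.11 and 0.02, and SRM, spermidine synthase, at 0.08 and 0.04. All 10 genes of polyamine breakdown, transport and hypusination were tested and 0 were called. Of 4 genes of aspartate supply 0 were called, with ASNS at 0.17 and 0.18 and GOT1 at -0.05 and -0.07. Of 3 regulators 0 were called. The list of 7 genes linked to p53, which holds neither ASS1 nor GAMT and is not complete, gave 0 called of 4 tested. ARG1, the liver arginase, and the urea cycle gene SLC25A2 had 0 counts in all 9 libraries, which at 3 counts allows up to 0.305 CPM in the deepest, and OTC had 1 count in a single R273H library.

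The genes whose pattern over all 9 libraries was most like ASS1 were looked for among 7251 genes that averaged 20 CPM or more and had at least 20 counts in every library. AFG3L2, a mitochondrial protease, had a Pearson correlation of log2 CPM with ASS1 of 0.939, FBLN1, a matrix protein, 0.916, RPL10P3, a pseudogene of a ribosomal protein, 0.879, CDK5RAP1, a tRNA-modifying enzyme, 0.873, and SAT1 0.870. These are descriptions over 9 libraries that share groups and scaling. Reads of RPL10P3 can come from its parent gene or from other copies, so its value is uncertain. AFG3L2 was at 50.5, 49.3 and 55.1 CPM in WT replicates 1 to 3 and at 53.1 to 55.5 CPM in the mutants. It was picked for its likeness to ASS1 over all 9 libraries, so WT replicate 3 lying among the mutants follows from that choice. A correlation of at least 0.8 was found for 16 genes. Among the members, ODC1 had a correlation of 0.138 with ASS1, ARG2 -0.042, OAT -0.108, AZIN1 -0.138 and SLC7A1 -0.365.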

How the data were processed

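RNA-seq of 9 libraries was analysed from 1 table of counts. The authors deposited expected counts per gene without normalization. Per the labels and the study's methods, reads were trimmed with fastp 0.24.0, aligned to GRCh38 with STAR 2.7.11, deduplicated by molecular identifier and counted by strand with featureCounts of Subread 2.1.1, with multi-mapping reads shared as fractions. The authors also deposited 9 columns of CPM, normalized per library by them, which went into no step. All counts were rounded before fitting.

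Depth ran from 1486315 to 9667306 counts per library. The fits leave out WT replicate 3, whose total was the lowest and below 4096044, which is 0.5 of the median total of the remaining 8. The study's methods leave out 1 WT replicate without naming it. Each pair of groups was fitted separately with edgeR 4.0.16 (filterByExpr, TMM, quasi-likelihood test) under R 4.3.3. P-values were adjusted over all tested genes by the Benjamini-Hochberg method, and the threshold was 0.05. CPM were computed with TMM factors over all 9 libraries. Intervals of single counts and the floor of 3 counts cover counting error only. DESeq2 1.42.0 was an alternative, and the fit was tested on simulated data. Python 3.11.15, scipy 1.17.1 and matplotlib 3.10.9 were used for the rest.

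Members and gene lists were chosen with earlier results of these data known. The rule named the 8 members, any listed gene past 0.05, the 2 non-members of each list with at least 5 CPM and the largest mean absolute log2 fold change, the 2 ASS1 pseudogenes with most counts and the 5 genes most correlated with ASS1. Other genes (SLC7A7, GATM, OAZ3, KLK3 and SERPIND1, MDM2 and the network genes at 0 counts) were named after their values were seen. The lists were urea cycle, arginine use, arginine transport and sensing, ornithine and proline, polyamine synthesis, polyamine breakdown, aspartate supply, regulators and genes linked to p53.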

Additional observations from a re-analysis of the deposited data

Results flagged for a closer look

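ASS1 at 62.8 CPM and ASL at 27.9 CPM were listed here because WT replicate 3, a library outside the fits, had more of them than WT replicates 1 and 2. Also higher there were SLC7A7, a basolateral carrier of cationic amino acids, at 8.37 CPM from 12 counts, against at most 0.245 CPM in the other 8 libraries, and GATM, the first enzyme of creatine synthesis, at 2.79 CPM from 4 counts, against at most 0.384 CPM. HIF1A, a hypoxia factor known to act on ASS1, was listed because its log2 fold change had opposite signs in the mutants. It was -0.00995 in G245S (standard error 0.0866, edgeR's adjusted p = 0.992) and 0.094 in R273H (standard error 0.0883, edgeR's adjusted p = 0.971). Neither passed, and the G245S value was smaller than its standard error, so the opposite signs are uncertain. Each mutant's libraries lay on 1 side of both fitted WT libraries. The highest G245S library was at 50.6 CPM, against 50.7 CPM in WT replicate 1. The share of all genes with such a pattern was not computed. The direct comparison of R273H with G245S gave HIF1A a log2 fold change of 0.10 (standard error 0.0753, edgeR's adjusted p = 0.994).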

How the results depend on the processing

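The higher ASS1 level in both mutants kept its direction in every alternative tried. Each alternative kept WT replicate 1, WT replicate 2 or both, whose low values selected ASS1, so the direction is no independent check. Leaving out 1 fitted library gave log2 fold changes from 0.55 to 0.67 in G245S and from 0.55 to 0.68 in R273H; a lone WT library was assumed to vary like the mutants. The choice of WT libraries moved it most, to 0.49 and 0.51 with all 3, 0.40 and 0.41 with WT replicates 1 and 3, and 0.42 and 0.44 with WT replicates 2 and 3. Members called other than ASS1 stayed at 0 of 6 in every alternative. Network genes called in G245S went from 0 to 2 without the low-count filter (SAT1, edgeR's adjusted p = 0.00335, and GAMT, 0.0331) and to 1 with robust shrinkage (SAT1, 0.0467). In R273H they went from 0 to 1 without the filter (GAMT, 0.0487). Over the alternatives the adjusted p of SAT1 in G245S ran from 0.00335 to 0.969. Calls over all genes changed from 20, 22 and 0 (G245S, R273H, R273H against G245S) to 144, 93 and 125 without the filter. With WT replicates 1 and 3 they were 3 and 4, and with all 3 WT libraries 10 and 16. With WT replicates 2 and 3 they were 16 and 13. The causes were not tested. Leave-one-out calls ran from 10 (without G245S replicate 3) to 30 (without G245S replicate 2) in G245S, with 13 without WT replicate 2, from 16 to 29 in R273H and from 0 to 3 between the mutants. Robust shrinkage called 30 in both comparisons with WT. Over all 9 libraries, deviations of same-numbered libraries from their group means correlated from -0.293 to 0.429. Between the mutants, same-numbered libraries correlated at 0.315, 0.429 and 0.0395, and different-numbered ones from -0.372 to 0.143. Between WT and the mutants, same-numbered libraries correlated from -0.293 to 0.0933 over all 9, and from -0.344 to -0.129 over the 8 fitted libraries. Whether the replicate numbers pair the libraries was not tested. A fit with the replicate number as a block gave ASS1 0.61 and 0.68, called 0 members and 0 network genes other than ASS1, and called 76, 47 and 59 genes in all. Of 1094 alternative values of single genes, 89 had the other sign, all for genes within 1 standard error of 0. At 90 counts, the ASS1 level in WT replicate 3 is known only within 50.5 to 77.2 CPM.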
